A study of Mus musculus with 7 samples.

Results

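The fatty acid binding proteins examined here are the genes Fabp3, Fabp5, Fabp7 and Dbi, taken by symbol from the gene rows of 7 droplet single-cell libraries of mouse brain. All 4 members were found among the 31053 genes of the tables. Fabp3, Fabp5 and Fabp7 belong to the intracellular lipid-binding protein family, whose members carry a long-chain fatty acid inside a beta-barrel. Dbi, the diazepam binding inhibitor or acyl-CoA-binding protein, is not of that family: it is a small helical protein that binds long-chain acyl-CoA esters, so it is grouped with the others by function. Fabp7, the brain lipid-binding protein, is a textbook marker of radial glia and young astrocytes. Fabp5, the epidermal form, is found in both glia and neurons, and Fabp3, the heart form, is known in the brain mainly from neurons. Dbi is known as a glial product whose peptides act at GABA-A receptors.

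The study followed oligodendrocyte precursor cells (OPCs) and their neighbours through postnatal life. The 3 adult libraries, all of P60 CD1 mice, were whole dorsal cortex with its white matter and ventricular-subventricular zone, grey matter (GM) alone, and white matter (WM) with the subventricular zone. The 4 early postnatal libraries were P2, P7 and P15 dorsal cortex of CD1 mice and the P7 dorsal and lateral subventricular zone (SVZ) of C57BL/6 mice. No treatment or genetic change was labelled. Nothing in the labels says how many mice went into a library or whether libraries came from separate mice. Each adult against early p-value below thus measures the spread between libraries, which within a group differ in age or region, and for P7 SVZ in strain. Tests with the library as a block measure the spread of differences within libraries. The libraries held 10074763 to 45668007 UMIs (unique molecular identifiers, each a counted RNA molecule), and 20697 cells of 25747 barcodes passed the filters. The median cell held 2791 to 6113 UMIs in the adult libraries and 5604.5 to 9530.5 UMIs in the early ones. Pairs of libraries shared 0 to 28 cell barcodes, at most 0.781% of the smaller library. P7 SVZ stood apart: it shared at most 1 barcode with any other library, differs from the rest in strain, and its OPC-like, astrocyte-like and neural precursor-like cells lay mostly in clusters of their own, so tests are also given without it.

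Clustering without the 4 genes gave 47 clusters. All but 9 could be named by the marker genes of a cell class and are called by that class with the suffix "-like". Some of the 9 carried the markers of a class but were left unnamed by the naming rules. In c46 of P60 GM, for instance, the 8 microglia markers summed to 53249 CPM. Levels are in CPM, the usual counts-per-million scale: the UMIs of a gene in a class and library, divided by all UMIs of that class and library. A gene is compared with itself across cells and libraries, not with another gene. Fabp7 (ENSMUSG00000019874) lies at mm10 chr10:57784881-57788450 on the plus strand, and Fabp5 (ENSMUSG00000027533) at chr3:10012548-10016607 on the plus strand. Fabp3 (ENSMUSG00000028773) lies at chr4:130308595-130315463 on the plus strand, and Dbi (ENSMUSG00000026385) at chr1:120113280-120121078 on the minus strand. All 4 are protein-coding, and a UMI is counted for the whole gene, exons and untranslated ends together. The annotation lists 5 processed pseudogenes near-identical to the Fabp5 transcript (at least 90% identity over at least 200 bases), 1 for Fabp3, 1 for Dbi and none for Fabp7. None of these pseudogenes is among the counted genes, and how reads that match both copies were counted was not tested.

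The stretch upstream of Fabp7 is shown because Fabp7 was the member called in both astrocyte-like and OPC-like cells. RefSeq (GRCm38.p6) gave a start for 3 of the 4 members, not for Fabp5. The line holds the 200 bases from 250 to 51 bases before the RefSeq start of Fabp7, read on the strand of the gene, at chr10:57784673-57784872.
Fabp7: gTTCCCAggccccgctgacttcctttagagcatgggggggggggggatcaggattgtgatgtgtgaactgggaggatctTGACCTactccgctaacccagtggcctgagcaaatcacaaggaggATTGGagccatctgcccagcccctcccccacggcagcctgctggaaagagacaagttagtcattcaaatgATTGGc
Capitals mark matches, on either strand and with no overlap between motifs, to the motifs searched. The Fabp7 stretch held 2 CCAAT boxes (CCAAT, in 28.4% of all promoters over the same window), at 126 and 56 bases before the start. It also held the RBPJ core TGGGAA (17.9% of promoters) at 249 bases and the nuclear receptor hexamer AGGTCA (11.4%) at 171 bases before the start. It did not hold GGGCGG (24.6%), ATGCAAAT (1.315%), ACAAAG (13.6%) or TGACGTCA (0.828%). It had 3 CG pairs, against a median of 4 over all promoters. These matches describe letters, not binding.

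Across cell classes the 4 genes differed in where they were high. Fabp7 was highest in astrocyte-like, neural precursor-like and OPC-like cells, Dbi in ependymal-like, astrocyte-like and OPC-like cells, Fabp3 in neurons, and Fabp5 was spread over glia, precursors and young neurons. The order of classes is by the mean of log2(CPM + 1) over libraries with at least 20 cells. For Fabp7 it ran OPC-like (mean 2603 CPM, 7 libraries), astrocyte-like (8346 CPM, 7 libraries) and neural precursor-like (2252 CPM, 5 libraries). Within shared libraries the order of these classes was not fixed: astrocyte-like cells ranged from 208 to 22347.5 CPM, and OPC-like cells from 1227 to 4249.9 CPM. Next came ependymal-like cells (1093 CPM in P7 cortex, the library with enough cells), excitatory intermediate precursor-like cells (501 CPM, 3 libraries) and committed precursor-like cells (COP-like, cells that have left the OPC state; mean 419.5 CPM, 6 libraries). Mature oligodendrocyte-like and endothelial-like cells were lowest, at 3.93 to 53.1 CPM and 0 to 17.3 CPM. The endothelial-like cells do not include cluster c15, left unnamed with 8 endothelial markers raised. Its 81 cells of P7 cortex had 155 Fabp7 UMIs among 922524.

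Dbi reached 15618 CPM in the ependymal-like cells of P7 cortex (48 cells), the cells that line the ventricles with motile cilia. OPC-like cells averaged 2683 ± 947 CPM (SD, n = 7) and astrocyte-like cells 4113 ± 4181 CPM (SD, n = 7), and the order between them changed with age, with OPC-like cells higher in 4 of 7 libraries. Neural precursor-like cells averaged 2054 ± 975 CPM (SD, n = 5), mature oligodendrocyte-like cells 1526 ± 464 CPM (SD, n = 4) and COP-like cells 703 ± 295 CPM (SD, n = 6). Mature oligodendrocyte-like cells were above COP-like cells in 3 of 3 shared libraries, by 0.78 ± 0.07 (SD) on the log2 scale. Interneuron-like, striatal neuron-like and excitatory neuron-like sums were at the low end, between 67.8 and 170.3 CPM.

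Fabp5 was present in glia, precursors and neurons alike. Astrocyte-like cells had the highest mean, 1944 ± 1542 CPM (SD, n = 7), and were above excitatory intermediate precursor-like cells in 3 of 3 shared libraries, by 1.03 ± 0.46 (SD) on the log2 scale. Excitatory intermediate precursor-like cells averaged 1533 ± 254 CPM (SD, n = 3), neural precursor-like cells 1182 ± 221 CPM (SD, n = 5) and neuroblast-like cells 1181 ± 215 CPM (SD, n = 6), and neural precursor-like and neuroblast-like cells did not differ beyond their spread (0.04 ± 0.15 log2 SD over 5 shared libraries). Mature oligodendrocyte-like cells had 1053.7, 2072 and 874 CPM in P60 cortex, GM and WM and 1744 CPM at P15. Excitatory neuron-like cells had 1732, 268 and 150.4 CPM at P2, P15 and P60 cortex. OPC-like cells averaged 407 ± 224 CPM (SD, n = 7). Endothelial-like cells were lowest, with 4.26 to 73.5 CPM.

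Fabp3 was highest in neurons. Interneuron-like cells had 196 CPM at P2, all of cluster c9. In P7 SVZ they had 734 CPM, with 406 CPM in c9 (31 cells) and 818 CPM in c41 (58 cells). The class of c41 is uncertain: it had 4 interneuron and 4 excitatory neuron markers raised, and the 8 excitatory neuron markers summed to 1113 CPM in interneuron-like cells of P7 SVZ and to 25.9 CPM at P2. Striatal neuron-like cells had 191 CPM in P7 SVZ and 72 CPM at P2. Excitatory neuron-like cells had 356, 267 and 211.5 CPM at P2, P15 and P60 cortex. By the mean of log2(CPM + 1), OPC-like cells came next among classes with at least 4 libraries, at 32.9 ± 11.2 CPM (SD, n = 7). Microglia-like cells had a higher mean CPM, 56.3 ± 89.3 (SD, n = 7), with a range of 3.11 to 250.05 CPM. The OPC-like cells were not apart from them within libraries (0.56 ± 1.79 log2 SD, n = 7). In endothelial-like cells no Fabp3 UMI was seen in any of 4 libraries, which allows at most 12.8 to 22.8 CPM at these depths (3 counts of each total). All intervals and floors cover counting error only.

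**Figure D1:**
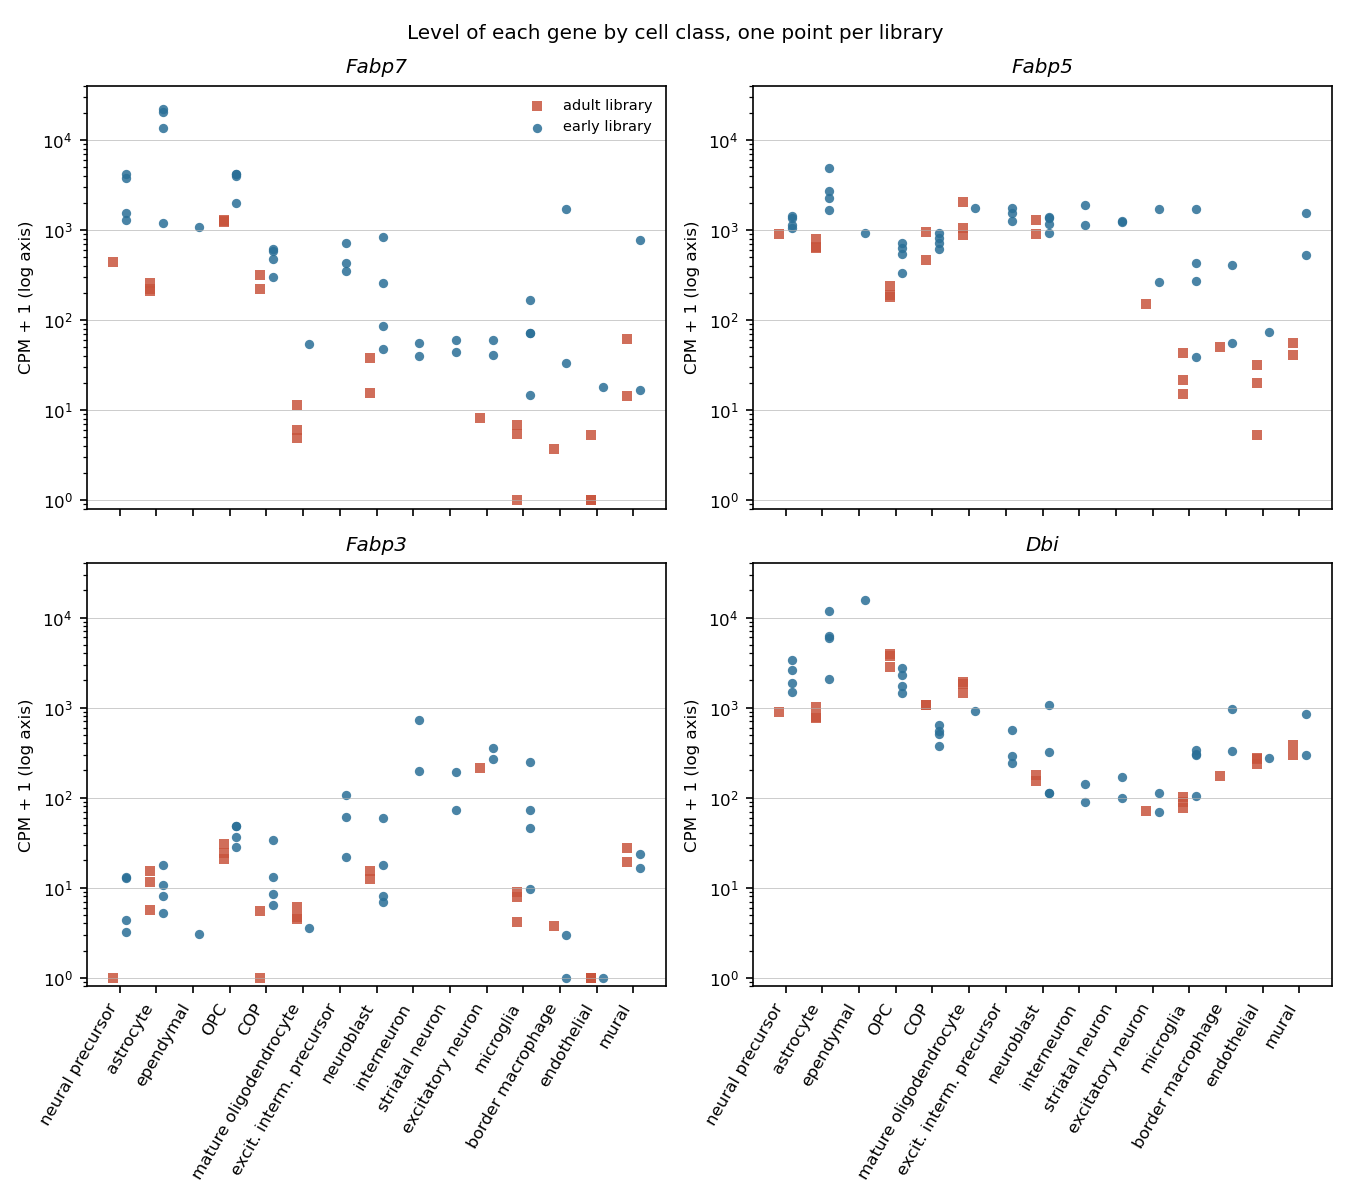
Level of Fabp7, Fabp5, Fabp3 and Dbi (CPM + 1, log axis) in each cell class, with a point for each library that held at least 20 cells of it, adult squares left of early circles. Fabp7 in astrocyte-like cells spans 208 to 22347.5 CPM with adult and early libraries apart, while Fabp3 is at 72 CPM or more in every interneuron-like, striatal neuron-like and excitatory neuron-like sum.

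The share of each gene's UMIs that a class held shows the same in another way, and depends on which cells each dissection caught. Astrocyte-like cells held 77% of all Fabp7 UMIs of P7 cortex, from 35.6% of its cells. In P60 GM, 84.8% of Fabp7 UMIs came from OPC-like cells, which were 6.52% of cells. In P60 WM, mature oligodendrocyte-like cells were 45% of cells and held 65.7% of Fabp5 and 67.9% of Dbi UMIs. In P2 cortex, excitatory neuron-like cells were 1515 of 3246 cells and held 67.6% of Fabp5 UMIs. Their Fabp5 was 1732 CPM, close to the 1584 CPM over all kept cells of that library.

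**Figure D2:**
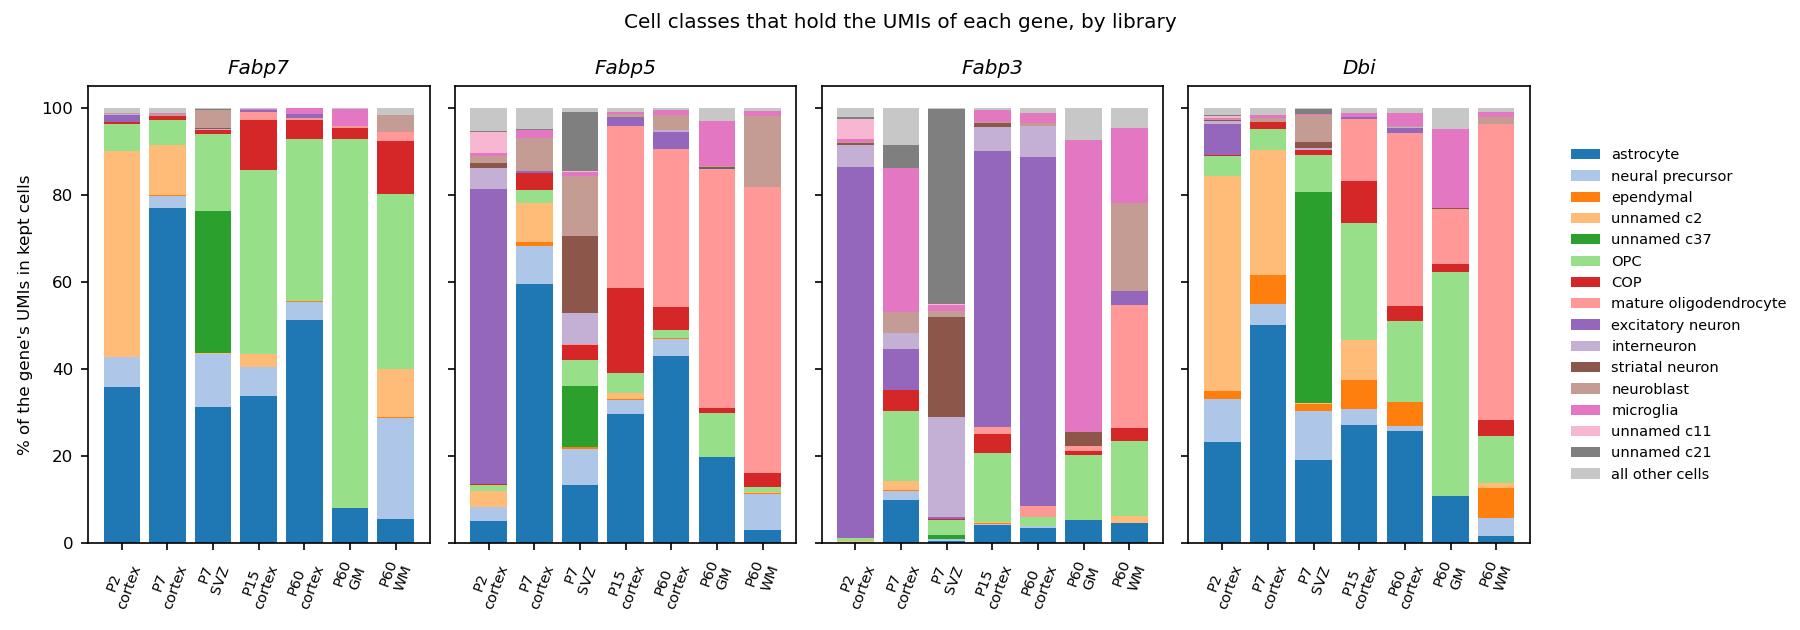
Percent of each gene's UMIs in kept cells (y axis) held by each cell class, in stacked bars for the 7 libraries in order of age. OPC-like cells hold 84.8% of Fabp7 in P60 GM, and mature oligodendrocyte-like cells 65.7% of Fabp5 in P60 WM.

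A pair of clusters left without a class name had very high levels. Cluster c2 (872 cells, led by Thbs4, Vnn1 and Pter) had Fabp7 at 19911, 5750.4 and 1146 CPM at P2, P7 and P15 cortex, while its Dbi was 9722.5, 9697 and 8348 CPM. Cluster c37 of P7 SVZ (526 cells, led by Riiad1) had Fabp7 at 9754 CPM and Dbi at 12713 CPM. In both, 4 ependymal markers were raised, with none of them among the 10 leading genes. Both were left unnamed because another list had more genes among those 10. Riiad1, which led c37, is a neural precursor marker. Under the other clustering settings Tfap2c, of the same list, was among the leading genes of the cluster led by Thbs4. The 10 astrocyte markers summed to 3849, 5407 and 8069 CPM in c2 and 6177 CPM in c37. At P2, cluster c2 held 47.3% of Fabp7 and 49.3% of Dbi UMIs, and in P7 SVZ, cluster c37 held 32.6% of Fabp7 and 48.55% of Dbi UMIs. These cells enter no comparison below.

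In astrocyte-like cells Fabp7 was far lower in adult than in early libraries. Fabp7 had 256, 208 and 222 CPM in P60 cortex, GM and WM, against 20524, 13674, 22347.5 and 1190.2 CPM in P2 cortex, P7 cortex, P7 SVZ and P15 cortex. The adult libraries lay together, and P15 lay between them and the other early libraries, with no overlap of the groups. How many of all genes had groups without overlap was not counted, here or below. Mean CPM was 228.7 ± 24.8 in adult (SD, n = 3) and 14434 ± 9586 in early libraries (SD, n = 4). The log2 difference, adult minus early, was -6.00 ± 0.97 (SE; adjusted p = 0.0462, Benjamini-Hochberg adjustment of edgeR's quasi-likelihood p, here and in the tests below). Of all 10032 genes tested in this comparison, 0.349% were called at an adjusted p below 0.05, 23 higher and 12 lower, and Fabp7 was the 1 member called.

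Dbi and Fabp5 lay on the same side in astrocyte-like cells without passing the threshold. Dbi had 793, 1017 and 769 CPM in P60 cortex, GM and WM, against 6225, 5981, 11925 and 2082 CPM in P2 cortex, P7 cortex, P7 SVZ and P15 cortex (log2 difference -2.96 ± 0.60 SE, adjusted p = 0.0585). Fabp5 had 792, 627 and 648 CPM in the P60 libraries in that order, against 2254, 2716, 4903 and 1670.5 CPM in the early ones (-2.09 ± 0.46 SE, adjusted p = 0.0597). For both genes every adult library was below every early library. Fabp3 was 4.64 to 14.4 CPM in adult and 4.25 to 16.7 CPM in early libraries, with the groups overlapping (-0.16 ± 0.67 SE, adjusted p = 0.906). DESeq2 called Fabp7, Dbi (adjusted p = 1.22e-06) and Fabp5 (5.83e-05), and edgeR with no low-count filter called the same 3 genes (0.0173 for Dbi and 0.0255 for Fabp5). At a coarser clustering no member was called (0.0812 for Fabp7), nor with whole cortex libraries only (0.576 for Fabp7).

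The number of members called in astrocyte-like cells changed with any 1 library left out. Without P15 cortex, Fabp7 (adjusted p = 5.04e-05), Dbi (0.000649) and Fabp5 (0.0024) were all called, and without any other single library, P7 SVZ included (0.0923), none was, with adjusted p for Fabp7 between 0.0564 and 0.259. Over these 7 fits the number of all genes called ranged from 0 to 2596, beside 35 with all libraries. Different clusters held most astrocyte-like cells at the different ages: c43 in the adult libraries (78 to 95.5%), c5 at P2, c24 at P7 cortex, c39 in P7 SVZ and c30 at P15. The 8 microglia markers summed to 297, 968 and 142 CPM in astrocyte-like cells of P60 cortex, GM and WM, against 18.7 to 109 CPM in the early libraries, and their part in the result was not tested. Within P15, the 21 cells of c5 had Fabp7 at 4017 CPM, the 672 cells of c30 at 1031 CPM and the 53 cells of c43 at 625 CPM. Within P60 cortex, c30 had 502 CPM and c43 245 CPM, and within P60 GM, c30 had 298 CPM and c43 169 CPM. Cells of c30 and c43 were thus lower at P60 than cells of the same clusters at P15, in each case from 1 library.

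The share of cells with a UMI differed likewise. After thinning every cell to 2000 UMIs, 37.2, 33.7 and 29.3% of astrocyte-like cells of P60 cortex, GM and WM had a Fabp7 UMI, against 100, 99.85, 100 and 75.4% in P2 cortex, P7 cortex, P7 SVZ and P15 cortex. For Dbi the shares were 73.15, 75.9 and 71.95% in the adult libraries and 93.4 to 100% in the early ones. Without thinning, 41.1, 36.2 and 35.85% of adult and 100, 99.6, 100 and 91.25% of early astrocyte-like cells had a Fabp7 UMI. Thinning left out 208, 44 and 24 adult and 5 to 130 early cells of the class that were shallower. Microglia, which are not known to make Fabp7, give the background at the same depth: 0 to 1.09% of adult microglia-like cells had a Fabp7 UMI, against 2.58 to 28.2% of early ones (P2 had too few cells).

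In OPC-like cells Fabp7 and Fabp5 were lower in adult libraries by a smaller factor. Fabp7 had 1287, 1267 and 1227 CPM in P60 cortex, GM and WM, against 4249.9, 4018, 4189 and 1982 CPM in P2 cortex, P7 cortex, P7 SVZ and P15 cortex. Fabp5 had 242, 179 and 189 CPM in the P60 libraries, against 629, 546.5, 726.5 and 337 CPM in the early ones. For both genes every adult library was below every early one, and how many of all genes were so was not counted. The log2 difference was -1.74 ± 0.33 (SE, adjusted p = 0.0139) for Fabp7 and -1.68 ± 0.30 (SE, adjusted p = 0.0102) for Fabp5. In this comparison 6.38% of 9759 genes were called, 285 higher and 338 lower, and 2 of the 4 members were among the lower.

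Dbi went the other way in OPC-like cells, short of the threshold. It had 3976, 2796 and 3761 CPM in P60 cortex, GM and WM, against 1449.5, 2325, 1744.5 and 2729 CPM in P2 cortex, P7 cortex, P7 SVZ and P15 cortex (log2 difference 0.58 ± 0.27 SE, adjusted p = 0.226). All adult libraries were above all early ones, with P15 just under P60 GM. Fabp3 had 19.8, 23.2 and 29.3 CPM in the adult libraries, from 8 to 14 UMIs each, against 47.4, 27.1, 47.9 and 35.3 CPM in the early ones (-0.91 ± 0.34 SE, adjusted p = 0.127), and the groups overlapped.

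The Fabp7 call in OPC-like cells was lost without any 1 of the adult libraries, and the Fabp5 call without P60 GM. Fabp7 was no longer called without P60 cortex (adjusted p = 0.0706), P60 GM (0.0804) or P60 WM (0.0509), and Fabp5 was no longer called without P60 GM (0.0804). Both held without P7 SVZ (0.0209 for Fabp7 and 0.0157 for Fabp5). Most OPC-like cells were in cluster c10 in 6 libraries (82.6 to 99.2%) and in c26 in P7 SVZ. The summed level of the 10 astrocyte markers in OPC-like sums was 403 to 722 CPM in adult and 143 to 396 CPM in early libraries. Of these 10 markers, 2 were at 0 in each adult library and 0 to 3 in the early ones. The 8 microglia markers summed to 291, 1301 and 107 CPM in P60 cortex, GM and WM, against 11.6, 75.5, 16.4 and 108 CPM in P2 cortex, P7 cortex, P7 SVZ and P15 cortex, with 0 to 3 of them at 0 in adult and 0 to 6 in early libraries. The mature oligodendrocyte markers (28.1 to 219 CPM in adult and 11.6 to 232 CPM in early libraries) and the excitatory neuron markers (46.4 to 69.4 and 21.3 to 85.5 CPM) overlapped between the groups. The part of these markers' cells in the result was not tested. With P60 cortex as the 1 adult library, against the whole cortex early libraries, neither gene was called (adjusted p = 0.453 for both). In OPC-like cells with no UMI of 26 mitotic genes, an alternative added after seeing the data, Fabp7 (-1.77, adjusted p = 0.0207) and Fabp5 (-1.62, adjusted p = 0.0166) were called again.

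**Figure D3:**
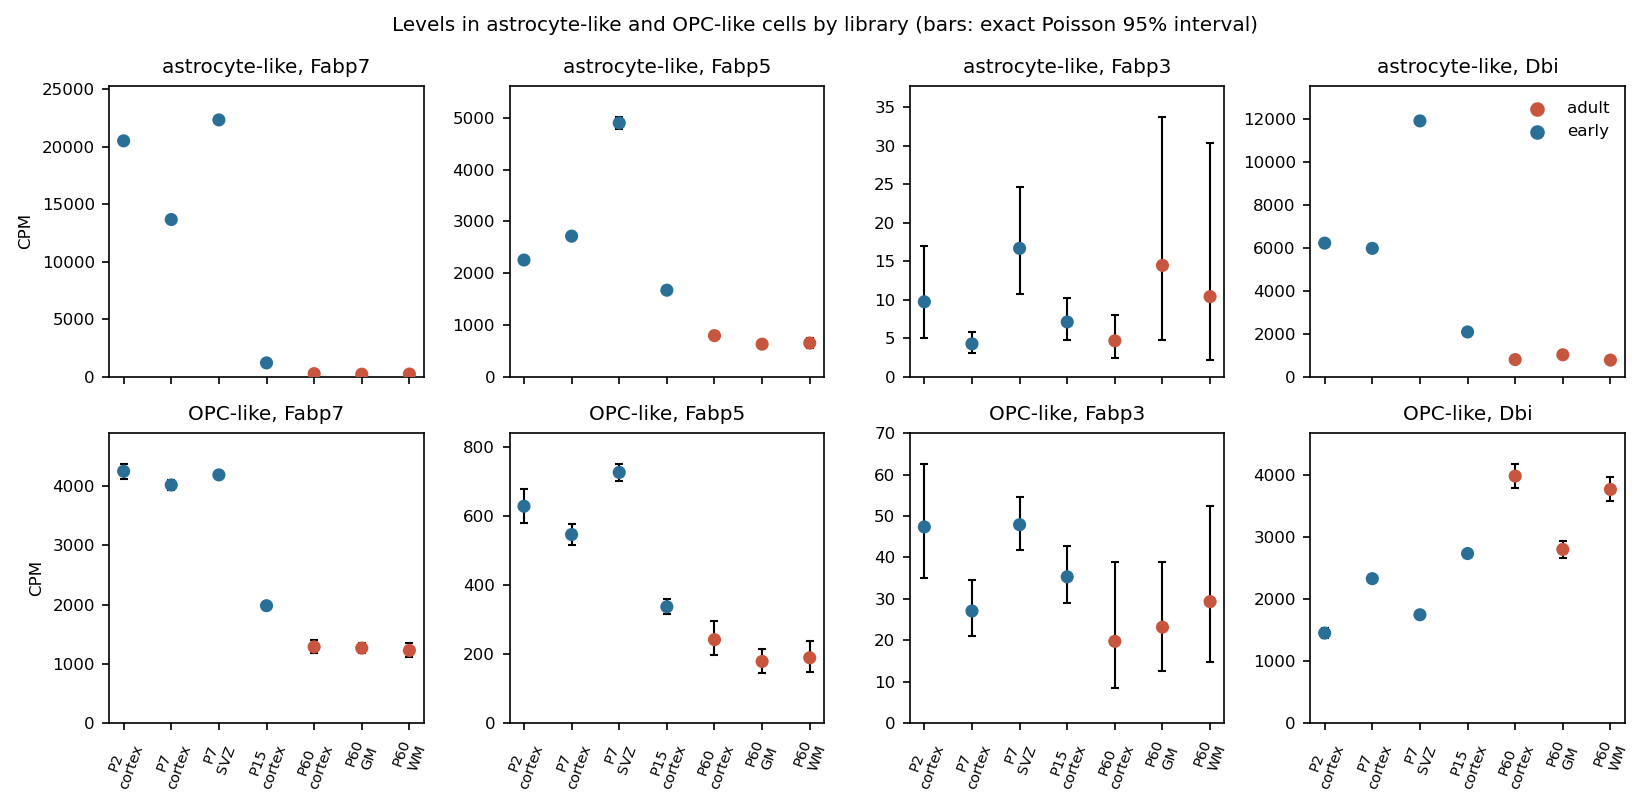
CPM of the 4 genes (y axis, from 0) in astrocyte-like cells (top) and OPC-like cells (bottom) of each library in order of age, with exact Poisson 95% intervals that cover counting error. Dbi is at 769 to 1017 CPM in adult astrocyte-like cells and at 2796 to 3976 CPM in adult OPC-like cells.

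The stage differences were then set against each other, with OPC-like and astrocyte-like sums of the 7 libraries in a single fit and the library as a block. Fabp7 and Dbi differed between the classes: the adult minus early difference was 3.82 ± 0.59 (SE, adjusted p = 0.0157) higher in OPC-like than in astrocyte-like cells for Fabp7, and 3.38 ± 0.56 (SE, adjusted p = 0.0165) higher for Dbi. Of 11926 genes, 1.57% were called, 157 higher and 30 lower. For Fabp5 the difference was 0.41 ± 0.31 (SE, adjusted p = 0.500) and for Fabp3 -0.85 ± 0.54 (SE, adjusted p = 0.426). The Fabp7 and Dbi calls held without P7 SVZ (0.0273 for both) but were lost without P60 cortex (0.187 for Fabp7 and 0.209 for Dbi), P60 GM (0.169 and 0.161) or P60 WM (0.0781 and 0.0821), and Dbi was also lost without P2 cortex (0.0572).

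**Figure D4:**
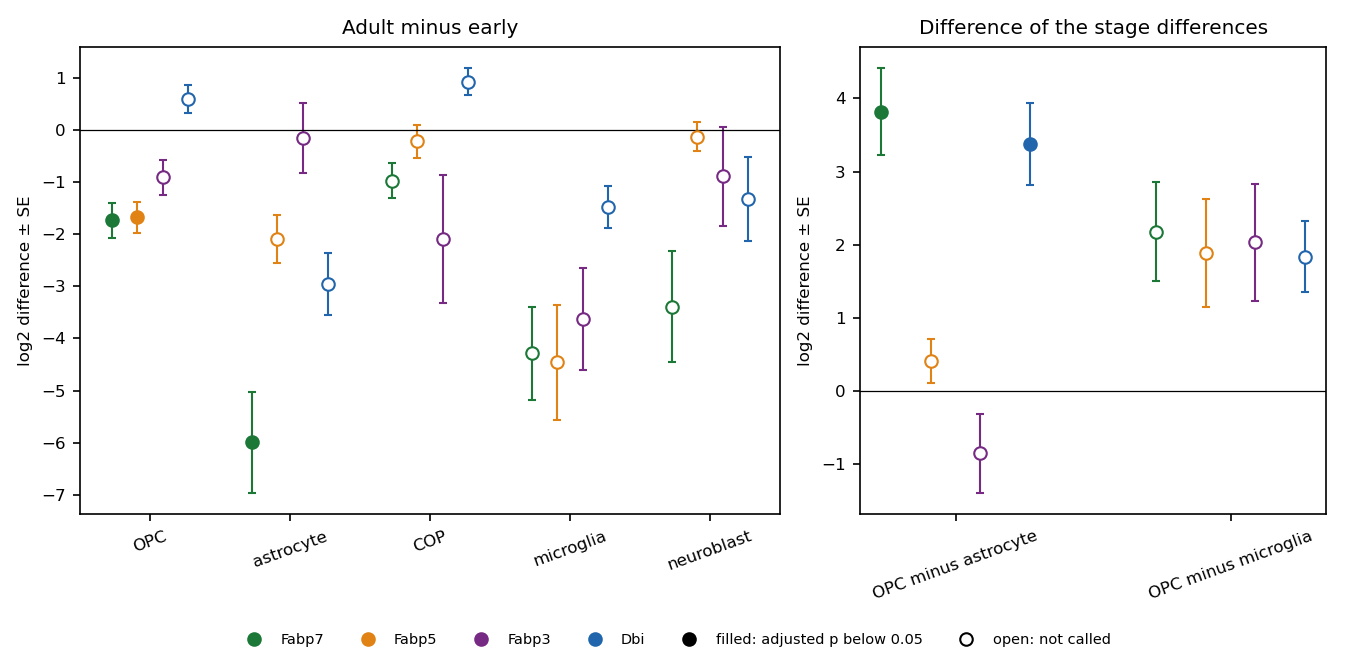
Left, adult minus early log2 differences with their SE for the 4 genes in 5 cell classes. Right, the OPC-like stage difference minus that of astrocyte-like or microglia-like cells. Filled points have an adjusted p below 0.05: Fabp7 and Fabp5 in OPC-like cells, Fabp7 in astrocyte-like cells, and Fabp7 and Dbi in OPC minus astrocyte.

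In the other classes no member was called. In COP-like cells (2 adult and 4 early libraries) 0.0325% of 9244 genes were called. Dbi was 1061 and 1071 CPM in P60 cortex and WM, against 371 to 647 CPM in early libraries, with no overlap (0.92 ± 0.26 SE, adjusted p = 0.320), and Fabp7 was 224 and 316 CPM against 298 to 617 CPM, overlapping (-0.97 ± 0.34 SE, adjusted p = 0.372). In neuroblast-like cells (2 adult and 4 early libraries), where 0.0229% of 8739 genes were called, Fabp5 was 1309 and 915 CPM in P60 cortex and WM and 934 to 1394 CPM in early libraries (-0.13 ± 0.27 SE, adjusted p = 0.956). Fabp7 in these cells was 14.4 and 36.8 CPM at P60 and 46.7 to 831 CPM early (-3.39 ± 1.06 SE, adjusted p = 0.858). Fabp7 and Dbi were called in neuroblast-like cells with no low-count filter (adjusted p = 5.4e-14 and 0.00712), at a coarser clustering (0.0423 for both) and at a mitochondrial limit of 20% (0.029 for both). At the coarser clustering and the 20% limit the class held other cells, 838 and 814 in P7 cortex against 491 here. It there took in a cluster with Cdc20 among its leading genes and 5 neural precursor markers raised.

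Microglia-like cells (3 adult and 4 early libraries) had little Fabp7, Fabp5 or Fabp3 in the adult libraries. Of 9560 genes, 0.0314% were called. Fabp7 was 5.88, 4.44 and 0 CPM in P60 cortex, GM and WM, the last allowing at most 1.89 CPM, against 71.4, 165, 71.5 and 13.9 CPM in P2 cortex, P7 cortex, P7 SVZ and P15 cortex (-4.28 ± 0.89 SE, adjusted p = 0.154). Fabp5 was 14.3 to 42.7 CPM in adult and 38.1 to 1701 CPM in early libraries (-4.46 ± 1.11 SE, adjusted p = 0.174). The 1701 CPM came from the 25 microglia-like cells of P2, where Fabp3 was 250.05 CPM and the 8 excitatory neuron markers summed to 161 CPM, against 2.51 to 53 CPM in the other 6 libraries; the part of neuronal RNA in this was not tested. Different clusters held most microglia-like cells at the different ages: c34 in P60 cortex (76.6%), c45 in P60 GM (93.1%) and c33 in P60 WM (60.8%), against c3 in P2 cortex, P7 cortex and P7 SVZ (72 to 98.5%) and c33 in P15 cortex (81.65%). Without P15 cortex all 4 members were called in microglia-like cells (adjusted p of 0.00495 for Fabp7, 0.00675 for Fabp5, 0.00587 for Dbi and 0.0111 for Fabp3), and without any other library none was. Over these fits the number of all genes called ranged from 2 to 627. With all libraries DESeq2 called 4 members (adjusted p of 1.49e-05 for Fabp7 to 0.0247 for Dbi), and edgeR with no low-count filter called Fabp7 (0.00573), Fabp5 (0.0102) and Fabp3 (0.0174). The OPC minus microglia difference was not called for any member (0.024% of 12482 genes called; Dbi 1.83 ± 0.49 SE, adjusted p = 0.203; Fabp7 2.18 ± 0.68 SE, adjusted p = 0.261; Fabp3 2.03 ± 0.80 SE, adjusted p = 0.372; Fabp5 1.89 ± 0.74 SE, adjusted p = 0.369). Without P15 cortex, Dbi (adjusted p = 0.00975), Fabp3 (0.0266) and Fabp5 (0.0365) were called in it, and with no low-count filter all 4 members were (0.0077 to 0.025). With 1 library left out at a time, 0 to 251 of all genes were called in it.

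Fabp7 UMIs were also counted in border macrophage-like cells. In P7 cortex, the border macrophage-like cells (68 cells) had 1739 CPM, with the 10 astrocyte markers summing to 1652.5 CPM there and to 9292 CPM in the astrocyte-like cells of the same library, whose Fabp7 was 13674 CPM; the part of free RNA in this was not tested. The border macrophage-like cells of P60 GM and P15 had 2.75 and 32.6 CPM. Mural-like cells (vessel wall cells, 2 adult and 2 early libraries, 20 to 65 cells each) had Fabp5 at 40.1 and 55.3 CPM in P60 cortex and WM, against 1539.5 and 531 CPM in P7 SVZ and P15 cortex (-4.52 ± 0.69 SE, adjusted p = 0.257). With edgeR 0% of 2778 genes were called in mural-like cells, where 242 had an unadjusted p below 0.05, and DESeq2 called 15 genes, Fabp5 among them (adjusted p = 0.000471). With 1 library left out at a time, the Fabp5 log2 difference in mural-like cells ranged from -4.99 to -3.495. Without P15 cortex, with 1 early library remaining, the difference was -1.32 for Dbi and -4.32 for Fabp7. Fabp7 was below the low-count filter with all 4 libraries. In mural-like cells Fabp7 was 13.4 and 61.4 CPM in P60 cortex and WM, against 773 and 15.6 CPM in P7 SVZ and P15 cortex. The 10 astrocyte markers there summed to 200.5 and 49.1 CPM, against 643 and 93.7 CPM, and their part in the result was not tested. In fits with 1 early library, that library is assumed to vary like the adult ones.

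Along the oligodendrocyte lineage the members parted. Fabp7 was lower in COP-like than in OPC-like cells in 6 of 6 libraries, by 2.65 ± 0.39 (SD) on the log2 scale of CPM + 1, and lower in mature oligodendrocyte-like than in OPC-like cells in 4 of 4, by 6.93 ± 1.265 (SD), the value of P60 GM resting on 3 UMIs in mature oligodendrocyte-like cells. Fabp5 was higher in COP-like cells in 6 of 6 libraries (0.88 ± 0.74, SD) and in mature oligodendrocyte-like cells in 4 of 4 (2.55 ± 0.66, SD). Dbi was lower in COP-like cells in 6 of 6 (-1.93 ± 0.20, SD) and in mature oligodendrocyte-like cells in 4 of 4 (-1.16 ± 0.29, SD), and COP-like cells were the lowest of the 3 classes in 3 of 3 libraries that held all of them. Fabp3 was sparse in the later classes. COP-like cells had 33, 7.47, 12 and 5.46 CPM at P2, P7 cortex, P7 SVZ and P15, below the OPC-like cells of each library, while in P60 cortex they had 0 UMIs, which allows at most 10.8 CPM, and in P60 WM 2 UMIs. Mature oligodendrocyte-like cells had 2.53, 5.05 and 3.73 CPM at P15, P60 cortex and P60 WM, below the OPC-like cells of each, and 1 UMI in P60 GM. These are descriptions within libraries, with no test.

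**Figure D5:**
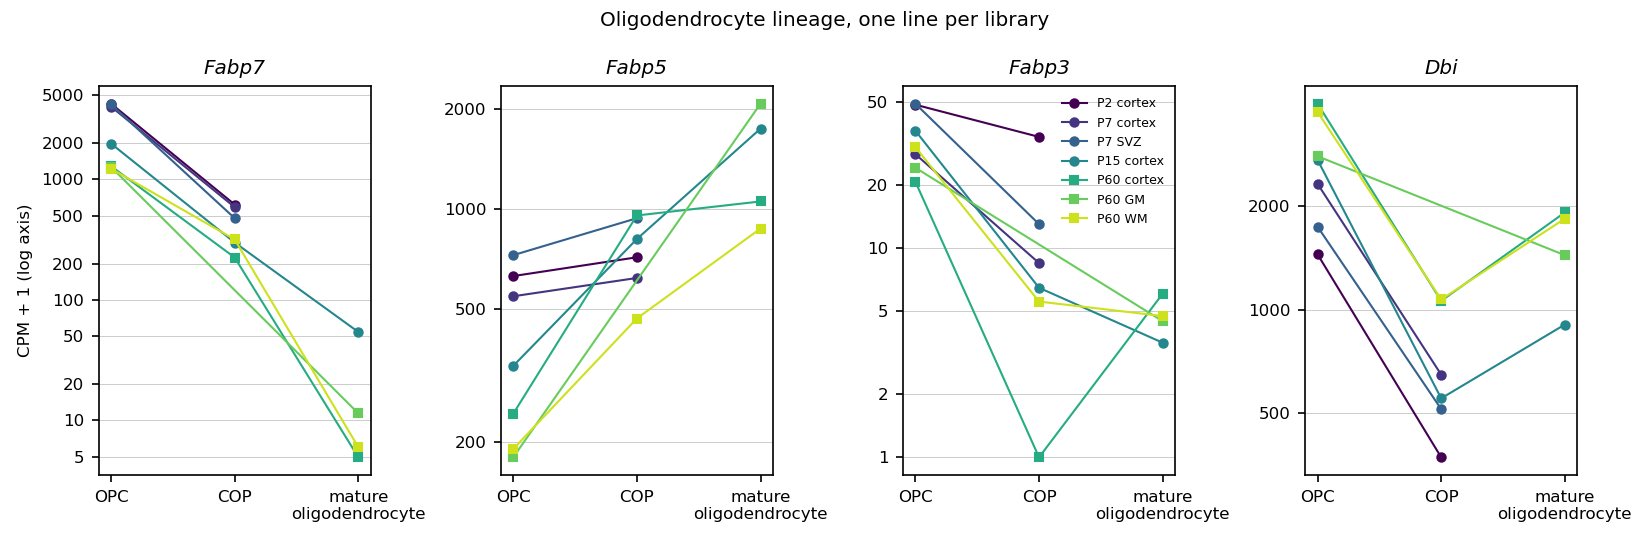
CPM + 1 (log axes, a scale for each gene) of the 4 genes in OPC-like, COP-like and mature oligodendrocyte-like cells, with a line for each library and squares for the adult ones. Fabp7 is lower at each later class along every line, Fabp5 is higher in COP-like than OPC-like cells in 6 of 6 libraries, and Dbi is lowest in COP-like cells in the 3 libraries that held all 3 classes.

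Dividing OPC-like cells were compared with the rest within libraries. The planned call set cells with 3 or more UMIs from S or G2M phase genes against cells with none. It took 52.7 to 80.4% of the cells as cycling, and only P7 SVZ and P15 cortex kept 15 cells on both sides. In these 2 libraries 0.835% of 9464 genes and none of the 4 members were called. A list of 26 mitotic genes, chosen after seeing those numbers, called 13.5 to 25.8% of early OPC-like cells cycling and left 4 early libraries, with 21.3% of 10098 genes called. Fabp3 was 39.5, 17.7, 31.5 and 8.28 CPM in cycling cells of P2 cortex, P7 cortex, P7 SVZ and P15 cortex, against 46.4, 31.3, 57.2 and 42.3 CPM in non-cycling cells, and fell (-0.95 ± 0.20 SE, adjusted p = 0.000294) from 5 to 46 UMIs in each cycling sum. Fabp5 was 771, 608, 828 and 389 CPM in cycling cells, against 607, 503, 675 and 323 CPM in non-cycling cells, and rose (0.33 ± 0.09 SE, adjusted p = 0.00296). Each gene moved the same way in 4 of 4 libraries, and neither was called when the library block was left out. Fabp7 (-0.17 ± 0.09 SE, adjusted p = 0.187) and Dbi (0.03 ± 0.09 SE, adjusted p = 0.849) did not pass, though Fabp7 was called without P15 cortex (-0.22, adjusted p = 0.000349).

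The P60 WM and GM libraries, 1 each, allow no test. In OPC-like cells Fabp7 was 1227 CPM in WM and 1267 CPM in GM (ratio 0.969, 95% counting interval 0.861 to 1.09), and Dbi 3761 CPM in WM and 2796 CPM in GM (1.345, 1.25 to 1.44). Fabp5 in mature oligodendrocyte-like cells was 874 CPM in WM (885 cells) and 2072 CPM in GM (31 cells), a ratio of 0.422 (0.387 to 0.460), and cluster c44 held most of them in both. Fabp5 in microglia-like cells was 42.7 CPM in WM and 14.3 CPM in GM (2.985, 2.18 to 4.07), where the 8 mature oligodendrocyte markers summed to 224 CPM in WM and 60.1 CPM in GM; their part in the result was not tested. Cluster c33 held most of these cells in WM and c45 in GM.

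P7 SVZ and P7 cortex, also 1 library each, differ in region, strain and clusters, which cannot be told apart. Fabp7 was close in OPC-like cells, with 4189 CPM in SVZ and 4018 CPM in cortex (ratio 1.04, 1.02 to 1.07). In neural precursor-like cells it was 4163 CPM in SVZ and 1302 CPM in cortex (3.20, 3.09 to 3.31), where cluster c38 held most of the SVZ cells and c0 all of the cortex cells. At a coarser clustering P7 SVZ was the 1 library with 20 neural precursor-like cells, and Fabp7 was 4277 CPM there. Dbi was 11925 CPM in SVZ and 5981 CPM in cortex in astrocyte-like cells (1.99, 1.96 to 2.03), and 1744.5 CPM in SVZ and 2325 CPM in cortex in OPC-like cells (0.75, 0.725 to 0.776).

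The genes most like each member were taken by the correlation of log2(CPM + 10) over 64 sums, among 7367 genes. The points share libraries, so these are descriptions with no p. Nearest to Fabp7 were Ptprz1, a receptor-type phosphatase (r = 0.908), Hes5, a Notch target (0.884), and Acot1, an acyl-CoA thioesterase (0.866). Nearest to Dbi were Psph of serine synthesis (0.901), Metrn, a secreted protein (0.853), and again Acot1 (0.839). Nearest to Fabp5 were Fdft1, squalene synthase (0.832), Atp5f1, a subunit of ATP synthase (0.792), and Sssca1 (0.784). Among those near Fabp3 were Psd (0.847) and Caly (0.837). Among the members, r was 0.762 for Fabp7 with Dbi, 0.539 for Fabp5 with Fabp7 and -0.362 for Fabp3 with Dbi.

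Other genes of lipid handling were set beside the members in the same tests. In astrocyte-like cells 0 genes were called in any of 7 lists, where 0.349% of all genes were called, so that a count of 0 in lists of this size says little about them. These comprised 17 of 17 tested genes of mitochondrial beta-oxidation (median log2 difference -0.32), 14 of 16 of fatty acid synthesis, elongation and desaturation (-0.25), 7 of 16 of uptake and activation (0.99) and 7 of 9 of fatty-acid-sensing nuclear receptors (0.41). They also comprised 5 of 9 acyl-CoA-binding domain genes (-0.74), 4 of 8 Dbi binding partners (0.26) and 1 of 12 other lipid-binding family genes, against a median of -0.01 over all genes tested. The smallest p-values there belonged to Acbd4 (2.19 ± 0.53 SE, adjusted p = 0.0682) and Gabra2, a GABA-A receptor subunit (1.65 ± 0.40 SE, adjusted p = 0.0682).

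In OPC-like cells, where 6.38% of all genes were called, 1 gene of the same lists was called: Srebf1, a regulator of lipid synthesis, rose (1.63 ± 0.36 SE, adjusted p = 0.0220) among 5 of 9 tested nuclear receptor and sensor genes. None was called of 16 tested genes of beta-oxidation (median 0.12), 14 of synthesis (-0.09), 11 of uptake (0.04), 5 acyl-CoA-binding domain genes (-0.54) or 4 Dbi binding partners (0.59), against a median of 0.01 over all genes. In cycling OPC-like cells by the 26-gene list, 6 of 16 beta-oxidation genes fell and 2 rose, beside 21.3% of all genes called, with Acadvl, an acyl-CoA dehydrogenase, at -0.97 ± 0.21 (SE, adjusted p = 0.000297). Of the other lists in that comparison, Acsl1 rose (0.86 ± 0.29 SE, adjusted p = 0.0277) and among those that fell were Elovl1, Rxrb, Nr1h2 and Acbd5. Without the library block, 382 genes in all were called in that comparison, against 2151 with it.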

How the data were processed

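RNA of dissociated mouse brain cells was counted with the 10x 3' droplet method. The deposited files hold raw UMI counts per gene and cell, from Cell Ranger (version 3.0.2 in the file headers), on the mm10 build per the submitters' processing notes. Left out were 1304 barcodes below a minimum of 500 genes, 3441 above a mitochondrial limit of 10% (2132 of these in P7 SVZ) and 305 doublet calls (scrublet). Counts were scaled to 10000 UMIs per cell and clustered with scanpy 1.11.5 on 2000 variable genes without the 4 members (30 principal components, 15 neighbours, Leiden resolution 1.5). A class needed 3 markers raised at least 2-fold and found in 10% of cells. A cluster stayed unnamed where another list had more genes among its 10 leading ones than its own class. It also stayed unnamed where its cells were shallow and none of its class's markers led.

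Raw counts were summed per library and class (at least 20 cells; 15 for cycling) and tested with edgeR 4.0.16's quasi-likelihood test (TMM scaling, filterByExpr, Benjamini-Hochberg, threshold 0.05). DESeq2 1.42.0 and the other alternatives are in the closing section, and each test was tested on simulated data. CPM intervals are exact Poisson, ratio intervals exact conditional and shares exact binomial, all at 95% and for counting error only. Members, lists and markers were chosen with earlier results of these data known. Named are the members, at most 4 genes per list by smallest p, and the 3 genes most correlated with each member (at a mean of at least 20 CPM). The class naming rule and the 26-gene mitotic list were chosen after seeing the data. Promoters came from RefSeq (GRCm38.p6) and gene positions from GENCODE. Some items that these rules name are not reported here.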

Additional observations from a re-analysis of the deposited data

Results flagged for a closer look

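In OPC-like cells of the early libraries, Fabp7 in P15 cortex was 1982 CPM, against 4018 to 4250 CPM in the other 3 early libraries, a gap of 0.898 of the group's range, above Dixon's 95% critical value for 4 samples. It was the 1 sample of 20 groups tested that stood apart in this way, and chance gives about 1 in 20. The adult minus early difference was higher in OPC-like than in astrocyte-like cells by 3.82 for Fabp7 and by 3.38 for Dbi on the log2 scale, by the test of the difference itself (edgeR, adjusted p = 0.0157 and 0.0165).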

How the results depend on the processing

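Of 395 log2 differences of members under other settings, 329 kept their direction and their side of the threshold, as did 152 of 168 mean levels and 12 of 24 shares of cells within 1 SD. Adult and early libraries could not be paired, because the labels name no pairs. The OPC minus astrocyte, OPC minus microglia and cycling tests compared sums within libraries, with the library as a block. The cause of each change below was not tested. Leaving out 1 library at a time, the number of members called ranged from 0 to 2 in OPC-like, 0 to 3 in astrocyte-like, 0 to 4 in microglia-like and 0 to 3 in mural-like cells, and from 0 to 2 for OPC minus astrocyte and 0 to 3 for OPC minus microglia; the number of all genes called ranged from 11 to 1193 in OPC-like, 0 to 2596 in astrocyte-like, 0 to 62 in COP-like, 2 to 627 in microglia-like, 0 to 757 in mural-like and 0 to 3 in neuroblast-like cells, 0 to 1628 for OPC minus astrocyte and 0 to 251 for OPC minus microglia. Differences that changed sign ranged from -0.60 to 0.45 for Fabp3 in astrocyte-like, -0.88 to 0.17 for Fabp5 in COP-like, -1.32 to 0.15 for Dbi in mural-like, -0.45 to 0.15 for Fabp5 and -1.28 to 0.048 for Fabp3 in neuroblast-like cells, and -0.014 to 0.10 for Dbi in cycling cells by the 26-gene list; none of these was called but Dbi in mural-like cells without P15 cortex (adjusted p = 0.00124).

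With no low-count filter, genes called numbered 1221 in OPC-like, 644 in astrocyte-like (3 members), 175 in COP-like, 229 in microglia-like (3 members), 172 in mural-like (2 members) and 123 in neuroblast-like cells (2 members), 926 for OPC minus astrocyte and 367 for OPC minus microglia (4 members), and Fabp7 in cycling cells by the planned call was 0.0254 (adjusted p = 0.977). With DESeq2 they numbered 1012 in astrocyte-like (3 members), 85 in COP-like, 273 in microglia-like (4 members), 15 in mural-like (1 member) and 7 in neuroblast-like cells, 5 for the planned cycling call and 935 for the 26-gene list. With whole cortex libraries only (1 adult library), 0 genes were called in OPC-like, astrocyte-like, COP-like, microglia-like and neuroblast-like cells, 0 of them members, and Fabp5 was 0.30 in COP-like and 0.21 in neuroblast-like cells. RLE scaling gave 9 genes for OPC minus microglia. Without mitotic UMIs, 252 genes were called in OPC-like cells. At 50 cells per sum, 0 genes were called in neuroblast-like cells. At a 20% mitochondrial limit, 64 genes were called in astrocyte-like, 5 in microglia-like and 20 in neuroblast-like cells (2 members). At Leiden resolution 1.0, 5 genes were called in astrocyte-like cells (0 members, Fabp3 at 0.44), 5 in COP-like and 14 in neuroblast-like cells (2 members). With the members among the variable genes, 54 were called in astrocyte-like cells. Cycling without the library block gave 0 genes by the planned call, and 382 genes and 0 members by the 26-gene list, which itself gave 2151 genes and 2 members.

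At resolution 1.0 and at the 20% limit, neural precursor-like cells reached 20 in P7 SVZ only, so their means rest on that 1 library and not on 5: Dbi was 3541 and 3467 CPM (3403 CPM in that library as reported), Fabp3 13.2 and 15 CPM (12.1 CPM), Fabp5 1436 and 1436 CPM (1426 CPM) and Fabp7 4277 and 4232 CPM (4163 CPM). In neuroblast-like cells, over 6 libraries each, mean Dbi was 1109 and 1085 CPM (323 CPM as reported) and mean Fabp7 1066 and 1173 CPM (213 CPM). At both settings a cluster with Cdc20 among its leading genes was named neuroblast, with 5 neural precursor markers also raised (787 and 779 cells). Neural precursor-like cells of P7 cortex numbered 293 as reported, and at these settings the class was found in P7 SVZ only. The boundary between these classes thus moved with the setting. Fabp5 in interneuron-like cells was 884 CPM at the 20% limit (3 libraries in place of 2), Fabp7 there was 62.5 CPM at resolution 1.0 and 64.8 CPM with the members among the variable genes, and Fabp3 in excitatory neuron-like cells was then 414 CPM, over 4 libraries with P7 SVZ (812 CPM) added. Mean shares of cells with a UMI at 1000 UMIs were 84.2% (Dbi), 31.3% (Fabp5) and 78.3% (Fabp7) of OPC-like and 74.1% (Dbi) and 64.85% (Fabp5) of astrocyte-like cells. Without thinning they were 17.9% (Fabp3) and 71.4% (Fabp5) of OPC-like, 4.46% (Fabp3) of astrocyte-like, and 52.1% (Dbi), 15.9% (Fabp3), 33.1% (Fabp5) and 23.4% (Fabp7) of microglia-like cells. Leaving out a library and reclustering were not run for the planned cycling call, for which 2 libraries had enough cells. Depth limits Fabp3 most, with 8 to 14 UMIs in each adult OPC-like sum.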
